A study of Homo sapiens with 8 samples.

Results

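The cytosolic heat shock genes examined here are 10 genes listed by symbol, namely HSPA1A, HSPA1B, HSPA2, HSPA8, HSPH1, HSPB1, DNAJB1, BAG3, HSP90AA1 and HSP90AB1. All 10 were among the 23393 symbols of the read-count table, and all 10 were among the 15262 genes tested. The counts came from 8 RNA-seq libraries of MDA-MB-231, an established human triple-negative breast cancer line with little ASS1, the enzyme with which cells make their own arginine. There were 2 libraries each of parental cells in full medium, parental cells starved of arginine for 48 h, ρ0 cells in full medium and ρ0 cells starved of arginine for 48 h. The ρ0 cells were clone 27 alone, derived with ethidium bromide, which depletes mitochondrial DNA, and were kept in medium with added pyruvate, uridine and ethidium bromide. The starvation was labelled as arginine deiminase (ADI), an enzyme that degrades arginine, at 0.3 µg/mL, whereas the methods describe medium made without arginine. Whether the 2 libraries of a group came from separate cultures was not stated, so the p-values measure the spread between these libraries, which may be technical.

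Heat shock proteins are chaperones, which hold unfolded proteins and help them to fold or to be degraded. The HSP70 proteins (HSPA genes) bind exposed hydrophobic stretches in a cycle driven by ATP, J-domain proteins such as DNAJB1 deliver clients and start the ATPase, and nucleotide exchange factors such as HSPH1 (HSP110) and BAG3 make HSP70 let go. The HSP90 proteins (HSP90AA1 and HSP90AB1) finish clients such as kinases and steroid receptors, and small heat shock proteins such as HSPB1 (HSP27) hold unfolded proteins without ATP. When unfolded proteins build up, the transcription factor HSF1 is freed from chaperones, forms trimers and binds heat shock elements, which are alternating copies of the letters GAA and TTC. In many tumours HSF1 and several of these chaperones are active without heat.

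The promoter letters that HSF1 is known to bind are shown for the genes in which 3 alternating units were found within 250 bases before and 50 bases after a transcript start. All 10 genes had entries in the RefSeq promoter sequences (GRCh38.p14), with 15 windows. The search was for GAANNTTC followed after 2 bases by GAA, on both strands, so that the motif on the other strand begins and ends with TTC. It was present in 172 of 35116 promoters (0.49%), which belonged to 0.608% of the genes, and in 3 of the 15 windows, 1 for each of 3 of the 10 genes. In the stretches below, given 5′ to 3′ on the strand of the gene, capitals mark the 3 units.

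HSP90AB1, chr6:44247770-44247798, plus strand, first unit 165 bases before the start: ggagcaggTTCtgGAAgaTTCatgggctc

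HSP90AB1, chr6:44247823-44247851, plus strand, first unit 112 bases before the start: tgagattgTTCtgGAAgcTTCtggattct

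HSPA8, chr11:123062346-123062374, minus strand, first unit 230 bases before the start: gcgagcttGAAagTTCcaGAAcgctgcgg

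HSPA8, chr11:123062171-123062199, minus strand, first unit 55 bases before the start: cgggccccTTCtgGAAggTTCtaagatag

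HSP90AA1, chr14:102087112-102087140, minus strand, first unit 88 bases before the start: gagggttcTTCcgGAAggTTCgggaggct

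In the GENCODE v29 annotation both HSP90AB1 stretches lie in an intron of 3 of the gene's 4 transcripts and upstream of the other. The HSPA8 stretches overlap exons of 2 and 3 of its 24 transcripts, and the HSP90AA1 stretch overlaps an exon of 1 of 10. With 2 units alone, GAANNTTC was in 6.77% and TTCNNGAA in 7.74% of all promoters, and either was in 13.5% of promoters and 16.2% of genes. Either was in 8 of the 15 windows and 7 of the 10 genes, which were the 3 above and HSPA1A, HSPA1B, HSPB1 and DNAJB1. The 2-unit and 3-unit motifs overlap, since a 3-unit match holds both 2-unit motifs. HSPA2, HSPH1 and BAG3 had neither in their windows, which says only that these letters were not in the windows searched. Of the genes with 3 units, HSP90AA1 and HSP90AB1 fell on starvation in both lines. HSPA8 passed in neither line in the fit to all 8 libraries, as given below.

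**Figure D1:**
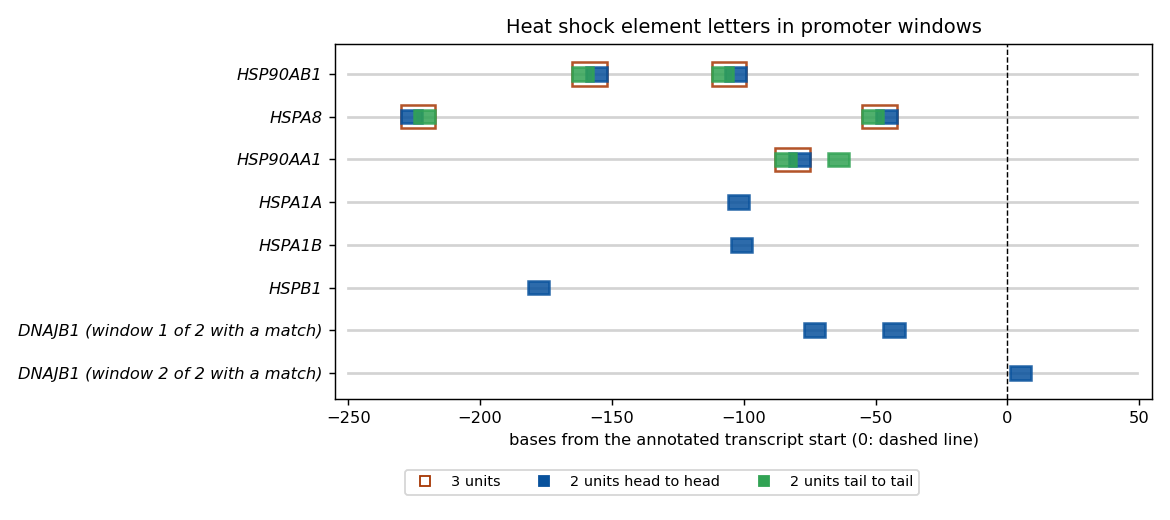
Matches to heat shock element letters along the promoter windows of the 7 genes that had any, with bases from the annotated transcript start on the x axis and 1 window per row. Open boxes are 3-unit matches, which were found in HSP90AB1, HSPA8 and HSP90AA1, and filled boxes are 2-unit matches.

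Total counts ranged from 25259503 to 31022155 per library, and the 10 genes took between 0.443% and 0.704% of them. The spread within pairs was unequal, since the biological coefficient of variation was 25.1% in ρ0 control cells against 5.18%, 2.25% and 1.84% in parental control, parental starved and ρ0 starved cells. The ρ0 control libraries also differed in HSPA6, the strictly stress-inducible HSP70, with a normalised read count (CPM, scaled by TMM to the library size) of 1.25 in replicate 1 and 26.3 CPM in replicate 2, while the other 6 libraries lay between 0.354 and 1.95 CPM. HSPA6 was chosen after its values were seen. Of 5 genes expected in MDA-MB-231, VIM, CD44, AXL and MSN were at 410 CPM or more in all 8 libraries, whereas SPARC was at 2.54 CPM or less. Of genes expected to be low, the epithelial genes CDH1 and EPCAM were at no more than 0.0709 and 0.521 CPM in the parental libraries but at 4.31 to 15.9 and 16.4 to 23.7 CPM in the ρ0 libraries. ASS1 was likewise at 0.30 CPM or less in parental and at 6.35 to 23.1 CPM in ρ0 libraries. KRT19 was at 16 to 146 CPM, and ESR1, PGR, PTPRC and ALB were below 0.7 CPM in all libraries. PECAM1, an endothelial gene, was at 3.16 and 1.415 CPM in ρ0 control and 1.08 and 0.938 CPM in parental control libraries. In the starved libraries of both lines PECAM1 was below 0.7 CPM. Genes of the mitochondrial genome were not in the table, so the depletion itself could not be checked. The epithelial genes and ASS1 in the libraries labelled ρ0 thus go against the markers listed for MDA-MB-231, and whether these libraries come from the same line as the parental ones was not tested. In comparisons of the lines, mitochondrial DNA, the clone, the origin of the cells and the medium cannot be told apart.

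The levels were compared between genes only after division by transcript length, as CPM per kb of the longest GENCODE v29 coding transcript. In parental control cells HSP90AA1 was first, at 537 ± 13.4 CPM per kb (SD, n = 2 here and below), followed by HSPA8, the constitutive HSC70, at 506 ± 14.2 and HSP90AB1 at 469 ± 8.13. DNAJB1, HSPH1, BAG3 and HSPA1B followed at 100.2 ± 3.78, 78.0 ± 3.27, 57.4 ± 0.198 and 32.8 ± 1.76 CPM per kb. HSPA2, HSPA1A and HSPB1 were far below, at 2.36 ± 0.0177, 2.22 ± 0.0198 and 0.295 ± 0.231 CPM per kb. In the other 3 groups HSPA8 was first, at 547 ± 9.33 in parental starved, 1046 ± 323 in ρ0 control and 809.6 ± 8.98 CPM per kb in ρ0 starved cells. It was followed by HSP90AB1 and then by HSP90AA1, the latter at 298.5 ± 15.8, 379 ± 37.5 and 206 ± 4.10 CPM per kb. HSPB1 came last in parental control and the fifth in ρ0 control cells, there at 81.5 ± 5.74 CPM per kb. Neighbours in this order overlapped in 2 places, HSPB1 and HSPA2 in parental starved cells and HSPH1 and HSPB1 in ρ0 starved cells.

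Some of these genes have near-identical copies, so that their counts depend on how the authors' counting shared reads. Of the 50-base windows of the HSPA1A transcript, 72.6% also occurred in HSPA1B, and 71.4% of those of HSPA1B occurred in HSPA1A. The shares with any other gene were 21.4% for HSP90AA1, 18.8% for HSP90AB1, 15.4% for HSPA8 and 11.4% for HSPB1, in each case with a pseudogene as the closest copy, and 2.57% or less for the other 4 genes. HSPA1A and HSPA1B are therefore uncertain as single genes and are also given as a sum.

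**Figure D2:**
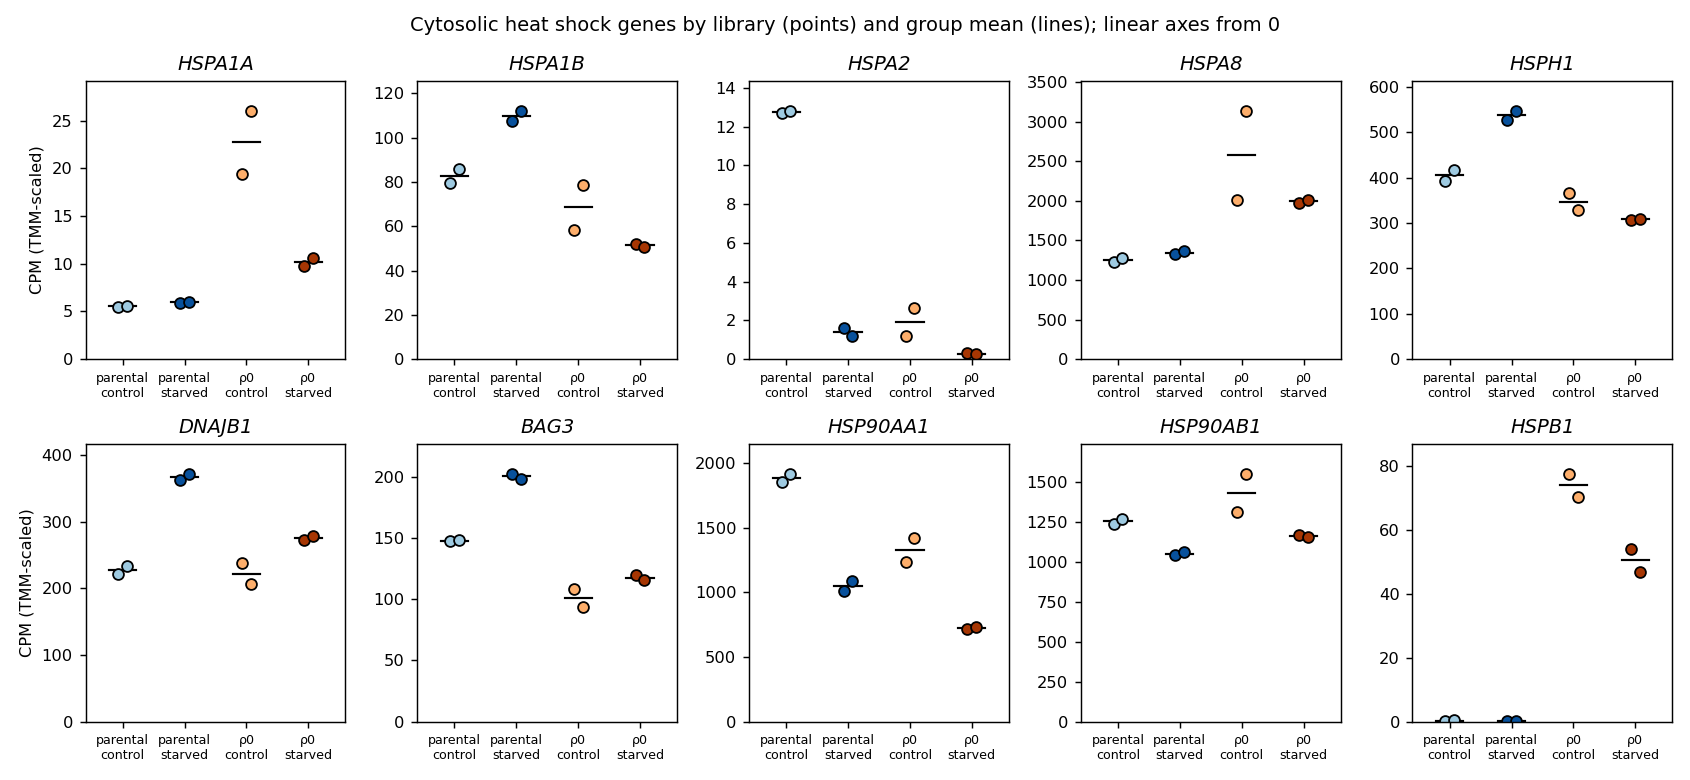
Levels of the 10 genes in CPM after TMM scaling, on linear axes from 0, with 1 point for each of the 2 libraries of a group and a line at their mean. The ρ0 control points stand apart from each other most in HSPA8, at 2014 and 3140 CPM, and HSPB1 is near 0 in all 4 parental libraries.

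Starvation of parental cells asked how these chaperones respond to 48 h without arginine. DNAJB1, BAG3, HSPH1 and HSPA1B rose, all by less than 2-fold (log2 changes below 1), while HSPA2, HSP90AA1 and HSP90AB1 fell and HSPA1A, HSPA8 and HSPB1 did not pass the test. Thus 4 of 10 were higher, against 30.4% of all tested genes, and 3 of 10 were lower, against 35.5%. HSPA2 alone also met the study's criteria for differentially expressed genes (DEGs), an adjusted p below 0.05 with a log2 fold change above 1 or below -1, which 34.9% of tested genes met. The median of the 10 was 0.11 on the log2 scale and that of all tested genes -0.07. In bulk RNA, fewer cells with a transcript and less of it per cell cannot be told apart.

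DNAJB1, the J-domain partner of cytosolic HSP70, was at 221 and 233 CPM in parental control and 362 and 372 CPM in parental starved libraries. The 2 groups were well apart, and the log2 fold change was 0.69 (SE 0.0902, adjusted p = 0.000363 by edgeR's quasi-likelihood test, as for all adjusted p-values below). BAG3, which joins HSP70 to small heat shock proteins in selective autophagy, was at 147 and 148 CPM in control and 203 and 198 CPM in starved libraries, a change of 0.44 (SE 0.0861, adjusted p = 0.00279). HSPH1 was at 393 and 417 CPM against 527 and 547 CPM, a change of 0.41 (SE 0.0837, adjusted p = 0.00356). These 3 rises, which concern co-chaperones of HSP70, held in each alternative analysis that kept the adjusted p as the only criterion, as counted here and below, and none met the fold threshold of the DEG criteria.

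Of the stress-inducible HSP70 pair, HSPA1B was at 79.6 and 85.8 CPM in control and 108 and 112 CPM in starved libraries. It rose by 0.41 (SE 0.135, adjusted p = 0.0282), and this call was lost in 7 of 19 alternatives, including scaling by the upper quartile. HSPA1A was at 5.49 and 5.56 CPM against 5.90 and 6.03 CPM. Its groups did not overlap, but the change of 0.11 was below its standard error of 0.168 (adjusted p = 0.584). HSPA8 was at 1222 and 1272 CPM against 1330 and 1363 CPM, again without overlap and without passing the test (0.11, SE 0.182, adjusted p = 0.616). Its spread was estimated from all 8 libraries, and the ρ0 control pair differed by 0.641 on the log2 scale. The parental control and starved pairs differed by 0.057 and 0.035. In the fit to parental libraries alone HSPA8 passed, so that 5 members were higher there.

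HSPA2, an HSP70 best known from the testis, was the member with the largest change. It was at 12.7 and 12.8 CPM in control libraries, from 423 and 369 counts, and at 1.58 and 1.17 CPM in starved libraries, from 40 and 33 counts. This was a 9.27-fold fall, with a log2 fold change of -3.21 (SE 0.343, adjusted p = 0.000137). HSP90AA1, the inducible HSP90, fell from 1852 and 1919 CPM to 1009 and 1087 CPM, a change of -0.85 (SE 0.0953, adjusted p = 0.000176). HSP90AB1, the constitutive HSP90, was at 1240 and 1270 CPM against 1042 and 1061 CPM, a change of -0.26 (SE 0.0968, adjusted p = 0.0482). The HSP90AB1 call was lost in 10 of 20 alternatives, and those of HSPA2 and HSP90AA1 in none of the 19 and 20 in which they were tested, although HSP90AA1 did not meet the fold threshold. HSPB1 had 4 and 12 counts in control and 8 and 6 counts in starved libraries, and its groups overlapped (0.02, SE 0.562, adjusted p = 0.981).

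In ρ0 cells the same comparison asked how the chaperones respond in the libraries labelled ρ0, whose depletion of mitochondrial DNA could not be checked. HSPA2, HSPA1A, HSP90AA1, HSPB1, HSPA1B and HSP90AB1 fell, DNAJB1 rose, and HSPA8, HSPH1 and BAG3 did not pass the test. Thus 6 of 10 were lower, against 22.1% of all tested genes, and 1 of 10 was higher, against 19.2%. HSPA2 and HSPA1A met the DEG criteria, which 12.4% of tested genes met. The median of the 10 was -0.39 and that of all genes -0.02. Of the 6 falls, those of HSPA2, HSPA1A and HSP90AA1 held in each alternative in which they were tested, HSP90AA1 without reaching the fold threshold, and the other 3 falls and the rise of DNAJB1 were each lost in 8 or more.

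HSPA1A was at 19.5 and 26.0 CPM in ρ0 control and 9.73 and 10.6 CPM in ρ0 starved libraries. Both starved libraries were below both controls, and the change was -1.17 (SE 0.158, adjusted p = 0.0013). HSPA1B fell from 58.5 and 78.9 CPM to 52.1 and 50.6 CPM, a change of -0.42 (SE 0.136, adjusted p = 0.0425). Without ρ0 control replicate 2 the HSPA1B change was -0.17. HSPA2 fell from 1.18 and 2.64 CPM to 0.304 and 0.249 CPM. These values came from 34 and 82 counts in control and 9 and 6 counts in starved libraries, and the change was -2.76 (SE 0.474, adjusted p = 0.0034), with a range from -3.22 to -2.05 when 1 library was left out.

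HSPA8 was at 2014 and 3140 CPM in ρ0 control and 1979 and 2010 CPM in ρ0 starved libraries. Only control replicate 2, the library with high HSPA6, stood above the rest. The change was -0.37 (SE 0.182, adjusted p = 0.144), and it was -0.65 without ρ0 control replicate 1 and -0.001 without ρ0 control replicate 2. This value thus rested on 1 library. Replicate 2 was also the higher ρ0 control for HSPA1A, HSPA1B, HSPA2, HSP90AA1 and HSP90AB1, and the lower one for HSPH1, HSPB1, DNAJB1 and BAG3. What set this library apart was not tested.

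HSP90AA1 fell in ρ0 cells from 1237 and 1423 CPM to 714 and 734 CPM, a change of -0.88 (SE 0.0954, adjusted p = 0.000552). HSP90AB1 was at 1309 and 1553 CPM against 1168 and 1153 CPM (-0.30, SE 0.0968, adjusted p = 0.0404), and its change was -0.16 without ρ0 control replicate 2. HSPB1 went from 77.7 and 70.4 CPM to 54.1 and 47.0 CPM, a change of -0.55 (SE 0.185, adjusted p = 0.0476). No HSP90 or HSPB1 library of the starved ρ0 cells reached its control range, which with 2 libraries a group is no test by itself.

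DNAJB1 was at 238 and 206 CPM in ρ0 control and 272 and 279 CPM in ρ0 starved libraries, a rise of 0.31 (SE 0.0899, adjusted p = 0.0281). BAG3 was at 108 and 94.1 CPM against 120 and 115 CPM (0.22, SE 0.0865, adjusted p = 0.079). HSPH1 was at 365 and 328 CPM against 307 and 309 CPM (-0.17, SE 0.0837, adjusted p = 0.142). The groups of these 3 co-chaperones did not overlap, but BAG3 and HSPH1 did not pass. With 2 libraries a group a lack of overlap is no test, and its share over all tested genes was not computed.

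The difference between the 2 responses was tested as an interaction, the starvation change in ρ0 cells minus that in parental cells. It was negative and past the threshold for HSPA1A, HSPA1B, HSPH1 and DNAJB1, so 4 of 10 were lower, against 18.8% of all tested genes. No member was higher at the adjusted threshold or at an unadjusted p below 0.05, nor by DESeq2 or limma-voom, against 21.6% of all genes higher at the adjusted threshold. The difference was -1.28 for HSPA1A (SE 0.23, adjusted p = 0.005) and -0.83 for HSPA1B (SE 0.191, adjusted p = 0.0126). The sum of their counts, which does not depend on how reads were divided between them, differed by -0.97 (SE 0.189, adjusted p = 0.00689). It rose in parental cells by 0.39 (SE 0.133, adjusted p = 0.0321) and fell in ρ0 cells by 0.571 (SE 0.134, adjusted p = 0.0126). HSPH1 differed by -0.58 (SE 0.118, adjusted p = 0.00802), and DNAJB1, which rose in both lines, by -0.38 (SE 0.127, adjusted p = 0.0466). The DNAJB1 call was lost in 11 of 19 alternatives and that of HSPA1B in 4 of 18, while those of HSPA1A and HSPH1 held in all 18 and 19. With the fold threshold added, HSPA1A alone remained.

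For the other 6 genes the difference did not pass. It was -0.48 for HSPA8 (SE 0.258, adjusted p = 0.177) and -0.22 for BAG3 (SE 0.122, adjusted p = 0.188). When 1 library was left out, the difference ranged from -0.76 to -0.15 for HSPA8 and from -0.34 to -0.11 for BAG3. HSP90AA1 and HSP90AB1 had differences of -0.03 (SE 0.134) and -0.05 (SE 0.137), with a sign that depended on the scaling. The differences of HSPA2, at 0.45 (SE 0.658), and HSPB1, at -0.57 (SE 0.605), were within their errors, and both genes had few counts in some groups. The HSPA2 difference was 0.002 without ρ0 control replicate 1 and 1.13 without ρ0 control replicate 2.

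**Figure D3:**
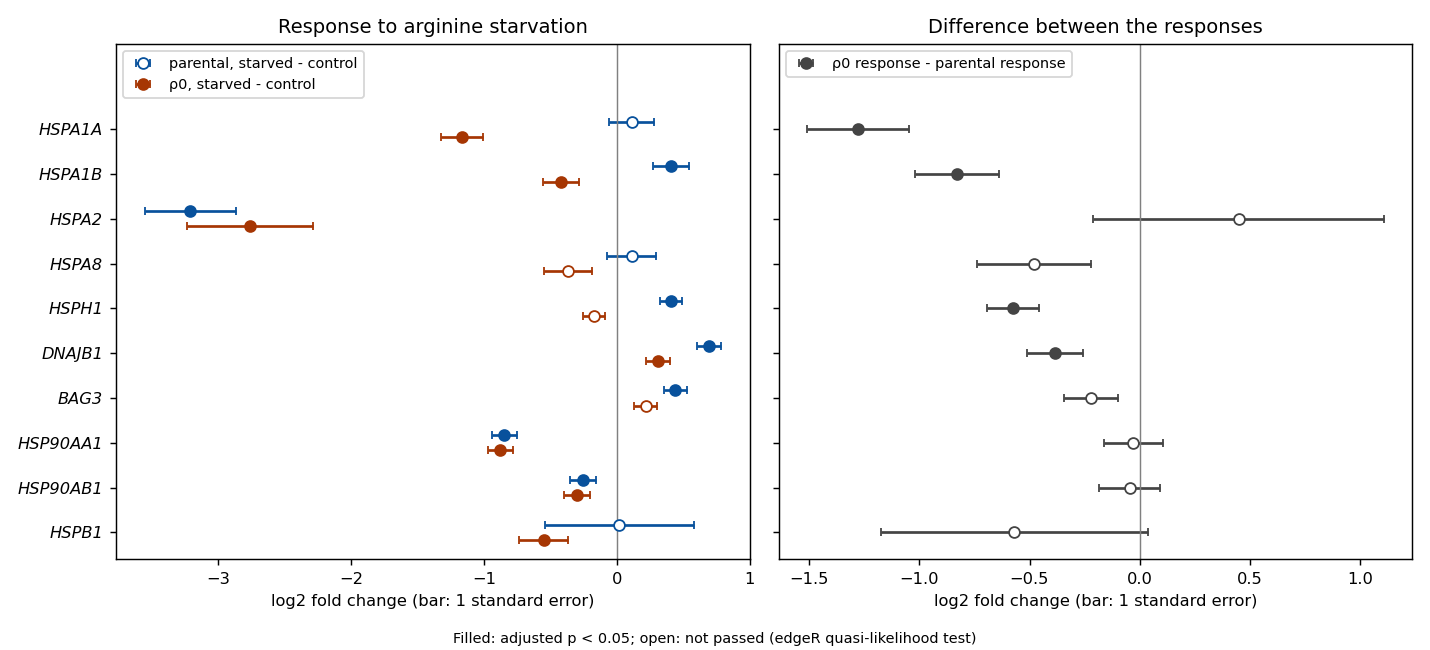
Starvation changes of the 10 genes as log2 fold change with a bar of 1 standard error, for parental and ρ0 cells on the left and for the difference between them on the right. Filled points passed an adjusted p of 0.05, and in the right panel HSPA1A, HSPA1B, HSPH1 and DNAJB1 are filled and lie below 0.

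In full medium the lines themselves were compared. These comparisons share the control libraries with those above. HSPB1, HSPA1A and HSPA8 were higher in ρ0 cells, and HSPA2, BAG3, HSP90AA1 and HSPH1 were lower. Thus 3 of 10 were higher, against 30.5% of all tested genes, and 4 of 10 were lower, against 31.8%. Of the 10, 4 met the DEG criteria, against 30.9%, and these were HSPB1, HSPA1A, HSPA8 and HSPA2.

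HSPB1 had 4 and 12 counts in the parental control libraries (0.120 and 0.417 CPM) and 2241 and 2188 counts in the ρ0 control libraries. It was 282-fold higher in ρ0 cells, with a log2 difference of 8.14 (SE 0.305, adjusted p = 1.65e-06), and leaving out 1 library at a time gave 7.46 to 9.21. The epithelial genes CDH1 and EPCAM, given above, were also higher in the ρ0 libraries, and their part in this difference was not tested. HSPA1A was higher by 2.04 (SE 0.164, adjusted p = 3.8e-05). HSPA1B did not pass (-0.27, SE 0.135, adjusted p = 0.121), although its groups did not overlap. The sum of the pair, at 85.1 and 91.4 CPM in parental and 78.0 and 104.9 CPM in ρ0 control libraries, overlapped between the lines (0.05, SE 0.133, adjusted p = 0.752).

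HSPA8 was higher in ρ0 control cells by 1.05 (SE 0.184, adjusted p = 0.00182), and the difference was 0.75 without ρ0 control replicate 2. HSPA2 differed by -2.73 (SE 0.327, adjusted p = 0.000262), and by -2.27 without ρ0 control replicate 1 and -3.38 without ρ0 control replicate 2. BAG3 differed by -0.55 (SE 0.0865, adjusted p = 0.00106) and HSP90AA1 by -0.50 (SE 0.0948, adjusted p = 0.00253). HSPH1 differed by -0.23 (SE 0.0836, adjusted p = 0.0474), a call lost in 13 of 20 alternatives. HSP90AB1 did not pass (0.19, SE 0.0967, adjusted p = 0.126), and DNAJB1 overlapped between the lines (-0.03, SE 0.0898, adjusted p = 0.777).

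Between starved ρ0 and starved parental cells, 3 of 10 were higher, against 32.9% of all tested genes, and 6 of 10 were lower, against 33.5%. HSPB1, HSPA1B and HSPA2 met the DEG criteria, which 35.5% of tested genes met. HSPB1 was 190-fold higher (7.57, SE 0.31, adjusted p = 1.87e-06), and HSPA1A was higher by 0.77 (SE 0.165, adjusted p = 0.00442). HSPA8 was higher by 0.57 (SE 0.183, adjusted p = 0.0265), a call lost in 7 of 20 alternatives. Lower in starved ρ0 cells were HSPA2 (-2.28, SE 0.498, adjusted p = 0.00471), HSPA1B (-1.10, SE 0.137, adjusted p = 0.000276) and HSPH1 (-0.80, SE 0.0841, adjusted p = 0.000114). BAG3 differed by -0.77 (SE 0.0866, adjusted p = 0.000166), HSP90AA1 by -0.53 (SE 0.0949, adjusted p = 0.00171) and DNAJB1 by -0.41 (SE 0.0899, adjusted p = 0.00458). HSP90AB1 did not pass (0.14, SE 0.0968, adjusted p = 0.225). The 3 HSP70 co-chaperones DNAJB1, HSPH1 and BAG3 were thus all lower in ρ0 than in parental cells when both were starved, whereas in full medium DNAJB1 was not.

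The balance within the HSPA1A and HSPA1B pair, and within the HSP90 pair, does not depend on library scaling. HSPA1A held 6.45% (exact 95% binomial interval 5.57 to 7.42%) and 6.08% (5.20 to 7.06%) of the counts of the HSPA1 pair in parental control libraries. It held 5.19% (4.41 to 6.07%) and 5.10% (4.38 to 5.90%) in parental starved libraries. In ρ0 control libraries its share was 25% (23.2 to 26.8%) and 24.8% (23.4 to 26.4%), and in ρ0 starved libraries 15.7% (14.1 to 17.5%) and 17.3% (15.4 to 19.3%). The ρ0 shares lay above all parental shares, and the ρ0 control libraries, which differed in level, had nearly the same share. Because the genes share most of their sequence, the shares also depend on how reads were assigned, and the intervals cover counting error only.

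HSP90AA1 held 59.9% and 60.2% of the HSP90AA1 and HSP90AB1 counts in parental control libraries and 49.2% and 50.6% in parental starved libraries. In ρ0 cells it held 48.6% and 47.8% in control and 37.9% and 38.9% in starved libraries. The counts per pair ranged from 45550 to 103122, so that each exact interval reached less than 0.5 percentage points from its value. The share of HSP90AA1 was lower in starved than in control libraries of both lines, and lower in ρ0 than in parental cells on each medium.

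**Figure D4:**
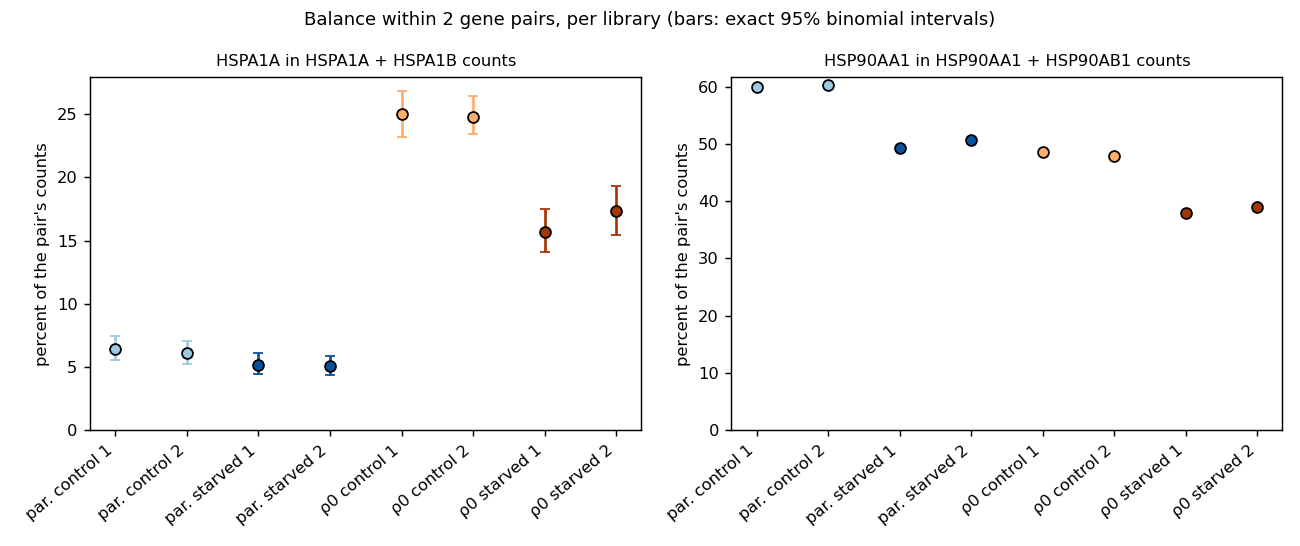
Share of each pair's counts held by HSPA1A (left) and by HSP90AA1 (right), in percent, for each of the 8 libraries with exact 95% binomial intervals, which on the right are smaller than the points. HSPA1A holds 5.10 to 6.45% in parental and 15.7 to 25% in ρ0 libraries, and HSP90AA1 falls in starved libraries of both lines.

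The chaperones and regulators around these genes were taken from 9 further lists, whose counts can be read against all tested genes, of which 30.4% were higher and 35.5% lower in starved parental cells and 19.2% higher and 22.1% lower in starved ρ0 cells. The first list held HSF1, HSF2, HSF4 and HSBP1, a protein that binds HSF1. HSF1, the activator of this gene set, was at 189 and 206 CPM in parental control, 236 and 219 CPM in parental starved, 81.8 and 96.4 CPM in ρ0 control and 89.9 and 89.2 CPM in ρ0 starved libraries. It passed the test on starvation in neither line (0.20, adjusted p = 0.109 in parental and 0.01, adjusted p = 0.973 in ρ0 cells), although in parental cells it passed in 4 of 19 alternatives, among them the fit to parental libraries alone (0.24, adjusted p = 0.00106). It was lower in ρ0 than in parental cells by 1.15 in full medium and 1.35 when starved, as log2 differences of -1.15 and -1.35. HSF2 rose in starved parental cells by 0.97 (SE 0.103, adjusted p = 0.000136) and did not pass in ρ0 cells (0.16, adjusted p = 0.272). In parental cells 1 of these 4 genes was higher and 1, HSF4, was lower, and in ρ0 cells 0 of the 4 passed, with 1, HSF4, at an unadjusted p below 0.05.

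Among other cytosolic HSP70 and HSP110 genes, 3 of 5 were higher and 1 lower on starvation of parental cells, against 1 and 2 in ρ0 cells. HSPA4, the HSP110 relative APG-2, rose by 1.13 in parental cells (SE 0.0746) and by 0.54 in ρ0 cells (SE 0.0739). HSPA4L rose in parental cells by 0.79 and fell in ρ0 cells, with a change of -0.74. HSPA6 fell in ρ0 cells by the test (adjusted p = 0.0236), which rested on the single high control library. Of other J-domain genes, 5 of 8 were higher and 2 lower in parental cells, and 1 and 3 in ρ0 cells. DNAJB6, which keeps aggregation-prone proteins soluble, rose in both (0.70 and 0.65), and DNAJC7 fell in both (-0.39 and -0.37). DNAJA1 fell in ρ0 cells (-0.75) and did not pass in parental cells (0.115, adjusted p = 0.245).

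Of other HSP70 co-chaperones, 5 of 7 were higher and 0 lower in parental cells, and 1 and 2 in ρ0 cells. BAG2, which inhibits the ubiquitin ligase CHIP, rose in parental cells (0.96) and did not pass in ρ0 cells (-0.07, adjusted p = 0.446). ST13 rose in both lines (0.54 in parental and 0.28 in ρ0 cells). The exchange factor HSPBP1 fell in ρ0 cells (-1.06) and did not pass in parental cells (-0.48, adjusted p = 0.0922). Of HSP90 co-chaperones, 7 of 10 were higher and 1 lower in parental cells, and 2 and 2 in ρ0 cells. CHORDC1 rose in parental cells (1.37, 2.59-fold), and UNC45A, which folds myosin heads, fell in both lines (-1.53 and -0.75). FKBP4, which binds steroid receptor complexes, rose in parental cells by 1.04 (SE 0.247) and in ρ0 cells by 0.74. Its ρ0 levels went from 143 and 269 CPM in control libraries to 352 and 336 CPM in starved libraries. The co-chaperones of HSP90 that rose in parental cells did so where HSP90AA1 and HSP90AB1 fell.

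Only 3 of 7 other small heat shock protein genes were tested, of which HSPB8, the partner of BAG3, rose in parental cells by 1.88 (3.68-fold, SE 0.16) and HSPB11 fell in ρ0 cells (-0.50). HSPB8 was at 53.6 and 59.3 CPM in parental control and 205 and 211 CPM in parental starved libraries. Of the chaperonin TRiC and prefoldin, 6 of 14 genes were higher and 1 lower in parental cells, and 2 and 5 in ρ0 cells. PFDN2 rose in both lines (1.54 and 1.69) and PFDN1, a subunit of the same prefoldin complex, fell in both (-0.56 and -0.76).

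Of organelle paralogs, 4 of 7 were higher and 0 lower in parental cells, with HSPA9, the mitochondrial HSP70, at 1.08 (SE 0.183). In ρ0 cells 3 were higher and 1 lower, with HSPA9 at 1.05 (SE 0.182). HSPA5 (BiP), the HSP70 of the endoplasmic reticulum, rose by 1.29 in ρ0 cells (SE 0.197) and by 0.59 in parental cells (SE 0.195). HSPE1, the mitochondrial HSP10, fell in ρ0 cells (-0.39) and rose in parental cells (0.83). Of 5 other HSF1 targets, 4 were higher and 1 lower in parental cells, and 2 and 1 in ρ0 cells. HMOX1, heme oxygenase, rose 8.74-fold in parental cells (3.13, SE 0.144) and 1.61-fold in ρ0 cells (0.69, SE 0.131). CACYBP fell in both (-0.83 and -0.75). HMOX1 is also a target of the oxidative stress factor NRF2.

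The interaction was negative and past the threshold in 1 of the 4 genes of the HSF list, 3 of 5 HSP70 and HSP110 genes, 2 of 8 J-domain genes, 2 of 7 HSP70 co-chaperones, 6 of 10 HSP90 co-chaperones, 1 of 3 small heat shock protein genes, 4 of 14 TRiC and prefoldin genes, 1 of 7 organelle paralogs and 3 of 5 other HSF1 targets. It was positive in 1, 1, 0, 0, 2, 0, 0, 0 and 0 of them, in the same order. Of all tested genes, 18.8% were lower and 21.6% higher, so that counts such as 1 of 4, 2 of 8 or 1 of 7 are near the background. Median starvation changes in parental cells were between 0.15 and 1.26 on the log2 scale in these 9 lists, against 0.11 for the 10 cytosolic heat shock genes. In ρ0 cells they were between -0.50 and 0.76, against -0.39. Between the lines in full medium, 7 of 10 HSP90 co-chaperones and the 4 genes HSF1, HSF2, HSF4 and HSBP1 were lower in ρ0 cells, while 4 of 8 J-domain genes and 4 of 7 HSP70 co-chaperones were higher and 0 lower. Of all tested genes, 31.8% were lower and 30.5% higher in that comparison. When both lines were starved, 8 of 10 HSP90 co-chaperones and 11 of 14 TRiC and prefoldin genes were lower in ρ0 cells and 0 higher, against 33.5% of all tested genes lower and 32.9% higher.

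**Figure D5:**
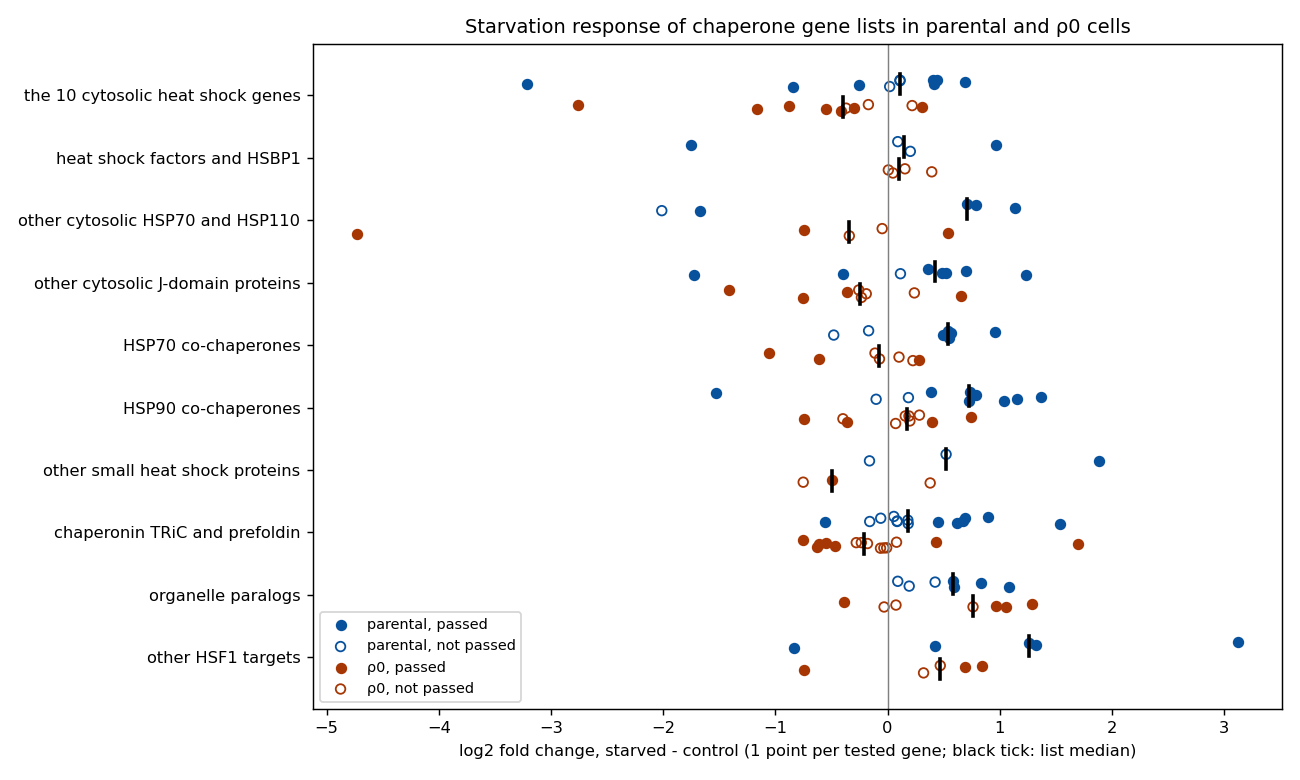
Starvation changes in log2 for each tested gene of the 10 cytosolic heat shock genes (top row) and of the 9 further lists, with parental cells above and ρ0 cells below in each row. Filled points passed an adjusted p of 0.05, black ticks are list medians, and the parental tick is to the right of the ρ0 tick in 9 of the 10 rows, the exception being the organelle paralogs.

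The profiles over the 8 libraries were compared by the root mean square (RMS) difference of log2 CPM, each gene centred on its own mean. Among the 10 genes the closest pair was HSPH1 and BAG3 (0.16), followed by HSPA1B with HSPH1 (0.19) and DNAJB1 with BAG3 (0.24). HSPA8 and HSP90AB1 were each other's nearest member (0.353), HSPA1A was nearest to HSPA8 (0.418) and HSP90AA1 to HSP90AB1 (0.45). HSPA2 and HSPB1 had no near member, with 1.4 and 3.13. Every one of the 10 had a gene outside the list that was closer, for example CMC2 for HSPH1 (0.0414), C1orf52 for DNAJB1 (0.0316) and PPL for HSPB1 (0.237). The outside gene was the nearest among all other tested genes, which far outnumber the members, so its being closer says nothing about the set. These values describe 8 libraries in 4 groups and carry no test.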

How the data were processed

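RNA-seq was analysed for 8 libraries (4 groups of 2). The authors deposited the raw read count of each gene symbol in 1 table that had not been normalized. The submitters' processing notes name Bowtie, Partek and hg19, and their versions and the annotation were not given in the sources used here. With edgeR 4.0.16 in R 4.3.3, genes were filtered by filterByExpr (15262 kept), libraries were scaled by TMM, and a quasi-likelihood model with a mean for each group was fitted to the 8 libraries together. P-values were adjusted over all 15262 genes (Benjamini-Hochberg), separately for each of 5 comparisons. The common biological coefficient of variation was 12.4%, with 4 residual degrees of freedom. Standard errors were obtained from the F statistic of each log2 fold change.

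The 10 members and all lists were chosen with earlier results of these data known. From each list the largest rise and fall per line were named, among genes whose groups did not overlap, with adjusted p below 0.05 and a mean CPM of 10 or more. HSF1, HSF4 and HSPA6 were named outside this rule, after their values were seen. Correlations of same-numbered libraries' deviations were between -0.053 and 0.0386, so no shared effect of the replicate number was seen. Whether same-numbered libraries were prepared together was not stated, and these values cannot tell. Alternatives were DESeq2 1.42.0, limma 3.58.1 (voom), other scalings and filters, and leaving out each library. The model scripts were tested on simulated data. Promoters were from RefSeq (GRCh38.p14) and transcripts from GENCODE v29. The result of 1 gene that the naming rule picked is not reported here. No coordinates were converted between builds.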

Additional observations from a re-analysis of the deposited data

Results flagged for a closer look

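The starvation response differed between ρ0 and parental cells by a test of the difference itself in 4 of the 10 cytosolic heat shock genes (edgeR interaction). All 4 were lower, against 18.8% of all tested genes that were lower and 21.6% that were higher. The difference, ρ0 minus parental on the log2 scale, was -1.28 for HSPA1A, -0.83 for HSPA1B, -0.58 for HSPH1 and -0.38 for DNAJB1. The directions were not alike. HSPA1B rose in parental and fell in ρ0 cells, HSPA1A fell in ρ0 cells without passing in parental cells, HSPH1 rose in parental cells without passing in ρ0 cells, and DNAJB1 rose in both but less in ρ0 cells. Without ρ0 control replicate 2, the library with 26.3 CPM of HSPA6, the differences were between -1.08 and -0.51 for these genes and all remained negative, and without ρ0 control replicate 1 they were between -1.47 and -0.27. HSPA1A and HSPA1B are uncertain as single genes, and their summed counts differed by -0.97. The HSPA1B rise held in 12 and its fall in 9 of 19 alternatives. The interaction call held in 14 of 18 for HSPA1B and in 8 of 19 for DNAJB1.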

How the results depend on the processing

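The 10 genes in 5 comparisons gave 969 log2 fold changes under alternatives, of which 837 kept their direction and side of the threshold, 91 lost the threshold, 21 gained it and 20 changed sign. With the fold threshold of the study, counts of members higher and lower were 0 and 1 in parental starvation, 0 and 2 in ρ0 starvation and 0 and 1 in the interaction. They were 3 and 1 between the lines in full medium, and 1 and 2 between the starved lines. At an adjusted p below 0.01 they were 0 higher and 3 lower in ρ0 starvation and 2 lower in the interaction. The 1 member higher in ρ0 starvation became 0 with total counts, with voom and a weight per group, and in a fit to ρ0 libraries alone. Leaving out 1 library gave 0 to 2 higher and 3 to 7 lower in ρ0 starvation, 2 to 6 lower in the interaction and 3 to 5 higher between the lines in full medium, the 5 without ρ0 control replicate 2. With 1 library left, a group was assumed to vary like the others. In parental starvation, upper quartile and total counts moved the median of all genes from -0.07 to -0.19 and -0.23, and changed signs of HSPA1A (-0.008 and -0.050), HSPA8 (-0.009 and -0.051), HSPB1 (-0.10 and -0.14) and DNAJA1 (-0.005 and -0.047). The same scalings gave interactions of 0.064 and 0.053 for HSP90AA1, 0.047 and 0.037 for HSP90AB1, 0.044 and 0.035 for DNAJB6, and 0.061 and 0.050 for HSPA9, which was 0.004 with voom and 0.002 with weights. Leaving out 1 library, HSPB1 in parental starvation ranged from -0.66 to 1.10 and DNAJB1 between the lines in full medium from -0.14 to 0.12. Interactions ranged from -1.64 to 0.11 for HSPB1, -0.12 to 0.048 for HSP90AA1, -0.16 to 0.056 for HSP90AB1, -0.21 to 0.10 for DNAJB6, -0.039 to 0.074 for DNAJC7, -0.68 to 0.20 for FKBP4, -0.31 to 0.30 for HSPA9 and -0.001 to 0.18 for CACYBP. The cause of these changes was not tested. With the replicate block, 5 member calls no longer passed (adjusted p = 0.0571 for HSP90AB1 in parental starvation, 0.0608 for HSPB1 and 0.0521 for HSP90AB1 in ρ0 starvation, 0.0711 for DNAJB1 in the interaction and 0.0735 for HSPH1 in full medium), and no other member call changed. A minimum of 10 counts in every library left HSPA2 and HSPB1 untested, and low counts limit both.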
